A study of Rattus norvegicus with 16 samples.

Results

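Glycine receptors, the scaffold that holds them at the synapse, and the transporters that move glycine, GABA and chloride across neuronal and glial membranes were examined in RNA from the rat spinal dorsal horn. The set was chosen by gene name and comprised 9 genes. Of these, 7 had a row in the authors' deposited table of an RNA immunoprecipitation (RIP), which held 8671 genes in all. They were Glra1, Glrb, Gphn, Slc6a5, Slc6a9, Slc32a1 and Slc12a5. Glra2 and Glra3 had no row there, so no identifier was paired with them and they were not analysed here.

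The rats either had bone cancer pain (cancer-induced bone pain, CIBP) or were normal controls. All were labelled wild type, and every sample was dorsal horn. For ac4C (N4-acetylcytidine, an acetylated cytidine in RNA) there were 3 CIBP and 3 control replicates, each an immunoprecipitated (IP) library with its input library. The RIP had 2 IP and 2 input libraries, all from CIBP. The protocol in the labels names an ac4C kit for all 16 samples, RIP included. Neither the labels nor the files state a target for the RIP antibody apart from this. How the tumour was made, the age and sex of the rats, and whether a replicate was 1 rat or several are not stated in the labels either, so the spread between replicates may be partly technical. The CIBP peak lists themselves carry the abbreviation CFA, and samples were grouped by the labels.

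Glycine is the main fast inhibitory transmitter of the spinal cord beside GABA. It opens a chloride channel built from alpha subunits, which bind the ligand (Glra1 encodes the main adult spinal one), and the beta subunit (Glrb), which ties the receptor to the scaffold protein gephyrin (Gphn). Slc6a5 (GlyT2) refills glycinergic terminals, Slc32a1 (VGAT) loads glycine and GABA into synaptic vesicles, and Slc6a9 (GlyT1), found mainly on astrocytes, clears glycine from the synapse. Slc12a5 (KCC2) pumps chloride out of neurons and thereby sets the strength of inhibition, and its loss in the dorsal horn is a known feature of pain models.

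CIBP lists 1, 2 and 3 held 50417, 2416 and 1173 peaks, against 1208, 1802 and 1418 in control lists 1, 2 and 3. In CIBP list 1, 49103 peaks (97.4%) had the same authors' fold, 10.6, and the same false discovery rate (FDR), 0.0562. Limiting the FDR to 0.05 left 919, 1240 and 899 peaks in CIBP and 916, 1074 and 1003 in controls. The files give no read totals, and the depth of every library is therefore unknown. Tissue markers of the dorsal horn had rows in the RIP table, with 4 of 9 genes of inhibitory neurons, 4 of 8 of excitatory neurons and 6 of 6 of astrocytes. Median log2 folds in the RIP were 2.00 for inhibitory neurons, 1.96 for excitatory neurons, 1.79 for motor neurons (4 of 6 genes), 2.93 for microglia (4 of 6) and 2.38 for Schwann cells and sensory ganglia (4 of 5).

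In the RIP, Slc6a9 had the highest log2 fold of IP over input of the 7 genes and Slc12a5 the lowest. Every row of the authors' deposited table had passed a threshold (lowest log2 fold 1.01, highest p 0.0488), so the folds below are descriptions without a test. The signal is a normalised value whose unit the header does not name, and levels are therefore compared between libraries and not between genes. The 7 genes had a median log2 fold of 2.33 in the authors' deposited table, against 2.40 over all 8671 genes, with 2 genes above that median and 5 below it. The difference of -0.076 was -0.071 against genes with a mean input signal above the table's median. It turned to 0.085 with a pseudocount of 1, which lowers the fold of low genes most by its construction. The input signal of the 7 genes had a median percentile of 90.1, so that setting cannot decide the direction, and none is given.

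Of the receptor subunits, Glrb had the higher fold and Glra1 the lower. Glra1 had a signal of 115 and 121 in IP 1 and 2, against 26.7 and 28.6 in input 1 and 2. The IP libraries were thus more than 4 times the inputs in each pair, at ratios of 4.33 and 4.25, and the IP and input values did not overlap. The authors' deposited table gave Glra1 a log2 fold of 2.099 (FDR 5.9e-111), higher than 26.9% of its genes and just above the lower quartile of 2.07. Glrb had a signal of 86.8 and 81.4 in IP 1 and 2, against 16.1 and 15.996 in the inputs. Its ratios were 5.41 and 5.09, and its log2 fold of 2.39 (FDR 6.2e-150 in the authors' deposited table) lay at percentile 49.2, in the middle of the table.

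The log2 fold of Glrb was thus above that of Glra1 in each pair, with 2.44 against 2.11 in pair 1 and 2.35 against 2.09 in pair 2. Gphn, the scaffold, had a signal of 33.1 and 33.4 in IP 1 and 2 and of 7.09 and 6.19 in input 1 and 2. Its log2 fold was 2.33 (FDR 1.9e-86, the authors' deposited table), with 2.22 in pair 1 and 2.43 in pair 2, so it was below Glrb in pair 1 and above it in pair 2.

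The 2 glycine transporters had the highest folds. Slc6a9 had a signal of 115 and 118 in IP 1 and 2, against 14.6 and 14.96 in input 1 and 2. Both IP libraries were nearly 8 times their inputs, at 7.86 and 7.92, the closest repeat of the 7 genes, since the pairs differed by 0.011 on the log2 scale against a median of 0.25 over all genes. Its log2 fold of 2.98 ranked 794 of 8671 in the authors' deposited table, and its FDR of 1.3e-243 ranked 30. Slc6a5 had a signal of 69.1 and 68.5 in IP 1 and 2, against 10.6 and 11.99 in the inputs. Its log2 fold of 2.61 (FDR 2.7e-156, the authors' deposited table) came from 2.71 in pair 1 and 2.52 in pair 2.

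Slc6a9 is largely a gene of astrocytes, so the levels of that cell type are given beside it. The 6 astrocyte markers had log2 folds of 1.84 (Aqp4) to 2.74 (Slc1a2) with a median of 2.38, all below Slc6a9. Their summed signal was 1969 and 1997 in IP 1 and 2, against 391 and 402 in the inputs, and none was at 0. The 6 oligodendrocyte markers had log2 folds of 2.98 (Mag) to 3.56 (Cnp), a range that starts where Slc6a9 lies. The 4 microglial markers with a row had 2.43 (P2ry12) to 3.21 (C1qa), a range that encloses Slc6a9. The part of cell type in these folds was not tested. In the signal levels of such bulk tissue, fewer cells of a type and less RNA per cell cannot be told apart. A fold of IP over input measures neither.

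The vesicular transporter Slc32a1 was the least repeatable of the set. Its signal was 36.8 and 29.8 in IP 1 and 2, against 5.64 and 8.88 in input 1 and 2. Input 2 was 1.58 times input 1 while IP 2 was 0.81 times IP 1. The log2 fold was 2.71 in pair 1 and 1.75 in pair 2, so the authors' value of 2.19 (FDR 8.9e-29 in their deposited table) lies between unlike pairs. The gap between pairs was larger than in 95.7% of all genes. Among the markers of inhibitory neurons, Gad1 and Gad2, the enzymes of GABA synthesis, had log2 folds of 1.95 and 2.06, and the transcription factor Pax2 1.84. Galanin (Gal), at 2.95, was the only one of these 4 above the table's median. Its pairs gave 3.47 and 2.61, from input signals of 1.86 and 3.64, beside a lowest input signal of 1.00 over all genes. The summed signal of the 4 was 91.0 and 90.3 in IP 1 and 2, against 18.8 and 21.9 in input 1 and 2, and none was at 0.

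Slc12a5 had the lowest log2 fold of the set, 2.00 (FDR 1.4e-62, the authors' deposited table), at percentile 20.9. Its signal was 52.0 and 48.0 in IP 1 and 2, against 11.2 and 13.7 in input 1 and 2. The pairs gave 2.21 and 1.81, and the second of these was below every pair value of Glra1, Glrb, Gphn, Slc6a5 and Slc6a9. Slc12a5 was the lowest gene in neither pair, since Glra1 had 2.11 in pair 1 and Slc32a1 had 1.75 in pair 2. For all 7 genes the lower IP value was above the higher input value. Every row had passed a threshold on the fold of IP over input, so this is no separate support for an enrichment.

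**Figure D1:**
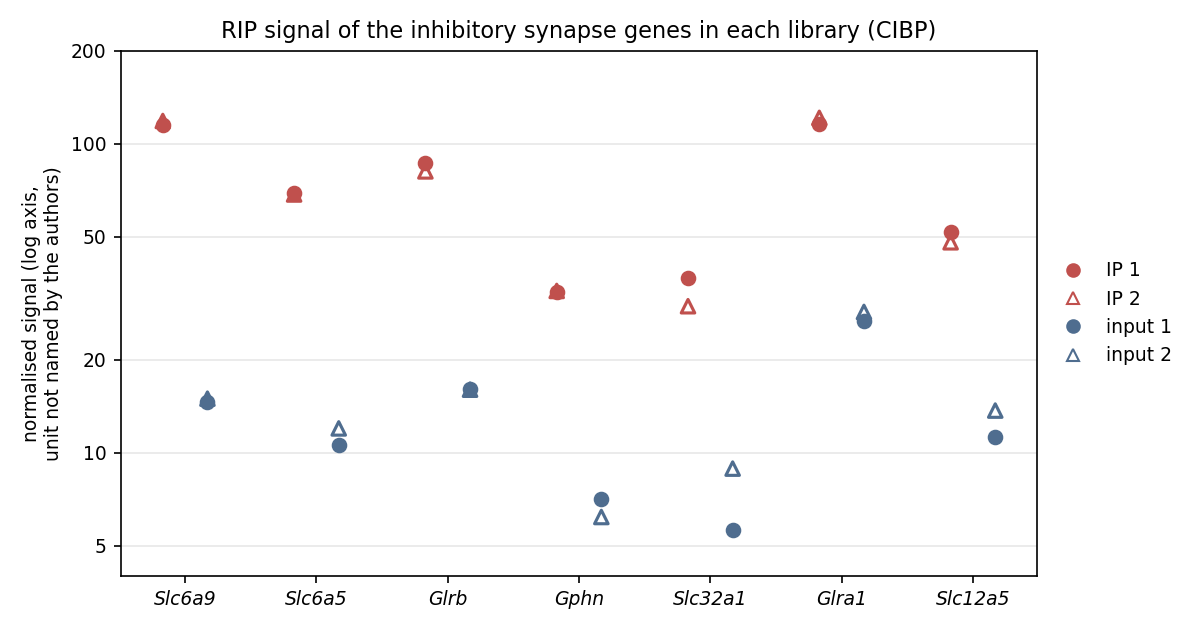
Normalised signal (log axis) of the 7 genes in each RIP library from CIBP, with IP 1 and 2 left of input 1 and 2 for each gene, and genes in falling order of the log2 fold. Every IP point lies above both input points of its gene, and Slc32a1 has the widest spread between inputs, 5.64 and 8.88.

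Of the 6 steps in the order of the folds, 2 were larger than the spread of the pairs. Slc6a9 stood above Slc6a5 (lowest pair 2.97 against highest pair 2.71), and Slc6a5 above Glrb (2.52 against 2.44). The steps from Glrb to Gphn, to Slc32a1, to Glra1 and to Slc12a5 were 0.066, 0.13, 0.095 and 0.097 on the log2 scale, and in each of them the pair values of the neighbours overlapped. With 2 pairs no test of these steps was run.

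**Figure D2:**
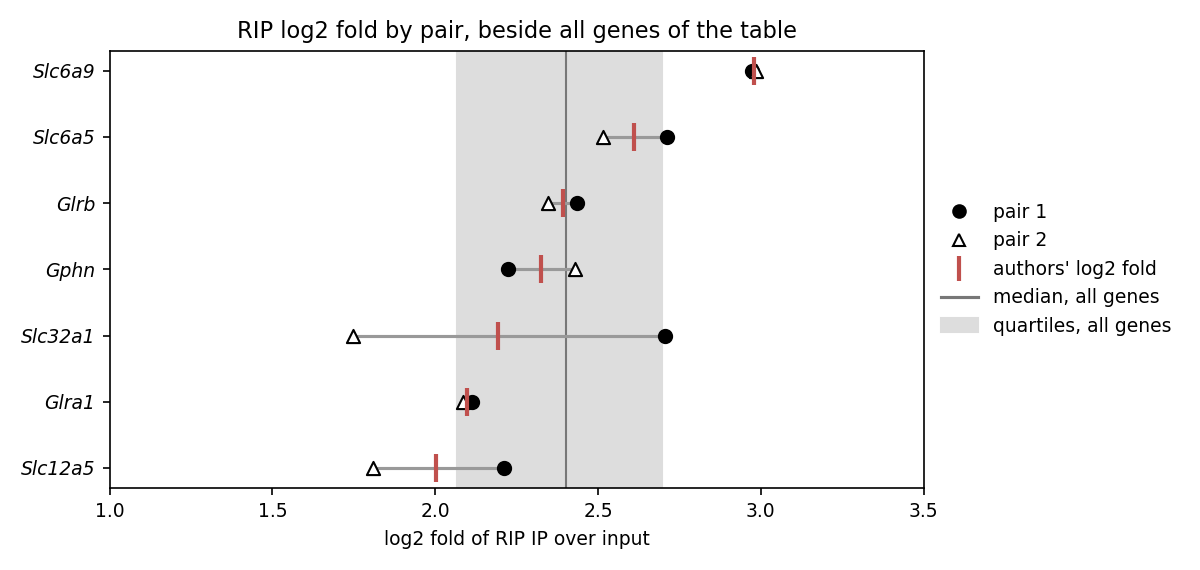
Log2 fold of RIP IP over input for each gene in pair 1 (dots) and pair 2 (triangles), with the authors' value (red bar), on the median (line, 2.40) and quartiles (grey band, 2.07 to 2.697) of all 8671 genes. Slc6a9 lies above the band in both pairs, whereas Slc32a1 spans 1.75 to 2.71.

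The genes nearest to each of the 7 over the 4 libraries are given by Euclidean distance of the log2 signals, a measure that takes in the level as well as the fold, in a unit that is not named and may depend on gene length. For Glra1 they were Pitpna, a phosphatidylinositol transfer protein, at a distance of 0.055, and Ppp1cb, a phosphatase subunit, at 0.11. For Glrb they were Snap91 and Mtpn (0.10 each), for Gphn Sdhaf2 and Api5 (0.095 and 0.12), and for Slc6a5 Cadps, a factor of vesicle release, and Elmod1 (0.082 and 0.088). For Slc6a9 they were Cdk2ap1 and Pgk1, a glycolytic enzyme (0.082 and 0.10). Hapln4 and the sodium channel Scn8a were nearest to Slc12a5 (0.13 each), while Ormdl3 and Ap3m2 were nearest to Slc32a1 (0.15 and 0.17).

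The ac4C lists were then searched for peaks of the 7 genes. A peak is a stretch of transcript that the authors' caller found enriched in an ac4C IP over its input, and its fold and FDR are the authors' values within that list. The genes had 20 peaks in all, 12 in the CIBP lists and 8 in the control lists. With an FDR of at most 0.05 there were 12, of which 5 were in CIBP and 7 in controls. A peak was present in at least 1 CIBP list for 5 of the 7 genes and in at least 1 control list for 6 of 7, where 86.7% and 31.2% of all genes in the RIP table had one. Without CIBP list 1 the count of 5 became 2. With the FDR limit these were 4 and 5 of 7 genes, against 23.2% in CIBP and 22.7% in controls over all genes. The mean RIP input signal of the 7 genes had a median percentile of 90.1 among all genes of the RIP table. The part of signal level in these shares was not tested. By list as deposited, 4, 1 and 2 genes had a peak in CIBP 1, 2 and 3, where 81.1%, 19.9% and 9.88% of all genes had one. In controls 1, 2 and 3 there were 2, 3 and 3 genes, beside 10.5%, 15.6% and 12.6% of all genes.

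No gene of the set counted as gained or lost in CIBP. Gained meant a peak in at least 2 of 3 CIBP lists and in 0 control lists, and lost the opposite. Over all 8671 genes, 11.3% were gained and 0.738% lost as deposited, and 1.8% and 1.71% with the FDR limit. Fisher's exact test (two-sided), adjusted by the Benjamini-Hochberg method over all 29990 genes with a peak in any list, gave an adjusted p of 1 for each of the 6 genes with a peak. Its smallest possible p is 0.1 with 3 lists against 3, so no gene of any kind had an unadjusted p under 0.05 (0 of 29990).

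**Figure D3:**
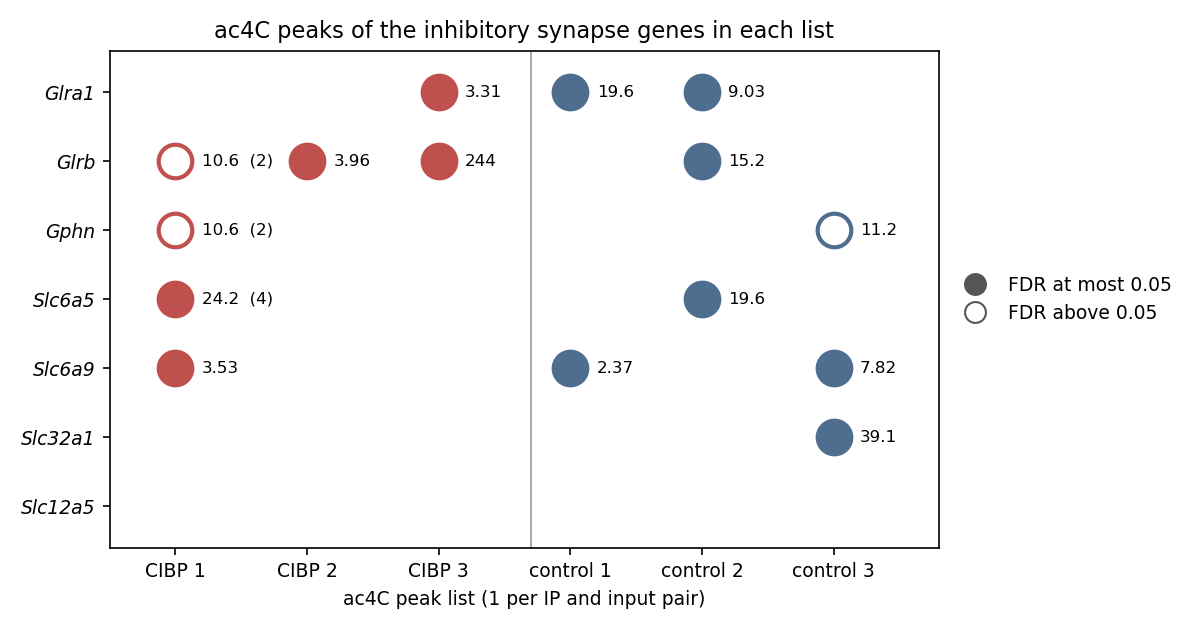
Presence of ac4C peaks of the 7 genes in the 3 CIBP lists (red) and the 3 control lists (blue). Filled circles have an FDR of at most 0.05. The number is the authors' fold of the peak with the lowest FDR, and the count of peaks stands in brackets where there were several. Slc12a5 has none in any list, and Glrb is the one gene with a peak in every CIBP list.

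Glrb had a peak in 3 of 3 CIBP lists and in 1 of 3 control lists (Fisher's exact p = 0.4), and no other gene of the set had peaks in more than 3 lists. Peaks in at least 4 of the 6 lists were found for 4.3% of all genes. In CIBP 1 it had 2 peaks on the minus strand of chromosome 2 (build rn6), from 179769009 to 179769248 and from 179769488 to 179769787, both at the recurrent fold of 10.6 and an FDR of 0.0562. In CIBP 2 the peak lay from 179770954 to 179771134 (fold 3.96, FDR 5.0e-28). In control 2 it lay from 179770446 to 179770595 (fold 15.2, FDR 2.5e-07). These 4 peaks shared no base but fell within 2126 bp, and the ones of CIBP 2 and control 2 were 358 bp apart.

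The Glrb peak of CIBP 3 was elsewhere. It joined 162 bp from 179787611 and 19 bp ending at 179804543 across a gap of 16752 bp. Since the gene is on the minus strand, this place is upstream of the other 4 peaks along the transcript. Its fold of 244 ranked 83 of 1173 in that list, and its FDR was 1e-121. With the FDR limit Glrb had a peak in 2 CIBP lists and 1 control list, and Fisher's exact p became 1. The control 2 peak alone kept Glrb from counting as gained, both with and without the limit.

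Glra1 showed the only place where peaks of one gene met in different lists. The same peak, with identical blocks, was found on the minus strand of chromosome 10 in CIBP 3 and in control 1. The peak joined blocks of 164 bp (40856277 to 40856440) and 16 bp (40862560 to 40862575) across a gap of 6119 bp. In CIBP 3 its fold was 3.31 (FDR 9.5e-10) and ranked 1055 of 1173 peaks, and in control 1 its fold was 19.6 (FDR 1e-215) and ranked 436 of 1208. Folds of separate lists are not on a shared scale, so no difference was tested. Of the other 20 pairs of peaks of one gene in different lists, 0 shared a base. How often such pairs share a base over all genes is not given here, so this is not read as a trait of the set.

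Such exact recurrence was rare in general. CIBP 3 and control 1 had 21 identical peaks, which is 1.79% of the CIBP 3 list and 1.74% of the control 1 list. Of all 58234 distinct peaks, 167 (0.287%) occurred in at least 2 lists. Most distinct peaks came from CIBP 1, with its 50417 peaks, so this share largely reflects that list. Against single control lists, identical peaks made up 0.662% to 1.79% of CIBP 2 or CIBP 3. Glra1 had another peak of 2 blocks in control 2, from 40869023 to 40873442 (fold 9.03, FDR 5.0e-18). It had no peak in CIBP 1 or 2 or in control 3. The gene therefore had 1 CIBP list against 2 control lists, and it would count as lost without CIBP 3.

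Peaks of Slc6a5 and of Slc6a9 shared no base between lists. Slc6a5, on the plus strand of chromosome 1, had 4 peaks in CIBP 1, of which 3 were at the recurrent fold of 10.6. The other one joined 3 blocks between 105319919 and 105324605, with a fold of 24.2 (FDR 1e-26) that ranked 390 of the 919 peaks within the limit. In control 2 its peak lay 7865 bp downstream, from 105332471 to 105332591 (fold 19.6, FDR 0.0288). CIBP 2 and 3 and controls 1 and 3 had none.

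Slc6a9, on the plus strand of chromosome 5, had 1 peak in each of 3 lists, at 3 places within 12134 bp. In CIBP 1 it ran from 136690966 to 136691449 (fold 3.53, FDR 0.0079). In control 1 it ran from 136702949 to 136703099 (fold 2.37, FDR 0.00089) and in control 3 from 136698070 to 136698803 in 3 blocks (fold 7.82, FDR 1.4e-07). Among the peaks within the FDR limit, the fold ranked 814 of 919 in CIBP 1, 851 of 916 in control 1 and 853 of 1003 in control 3, and the gene would count as lost without CIBP 1.

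Slc32a1 had a single peak, in control 3, on chromosome 3 from 155103388 to 155103567 (plus strand, 180 bp, fold 39.1, FDR 4.7e-08). Gphn, on the plus strand of chromosome 6, had 2 peaks in CIBP 1 at the recurrent fold and 1 in control 3 from 101786875 to 101795139 (fold 11.2, FDR 0.0617), and none within the FDR limit. Slc12a5 had no peak in any of the 6 lists, a pattern shared by 835 of the 8671 genes (9.63%), or, with the FDR limit, by 5476 genes (63.2%).

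Of the 20 peaks, 12 were made of 2 or more separate blocks. In the 6 lists as deposited, 50.4% to 55.0% of peaks did so. Whether the peaks lie in coding sequence or in untranslated ends was not analysed here.

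**Figure D4:**
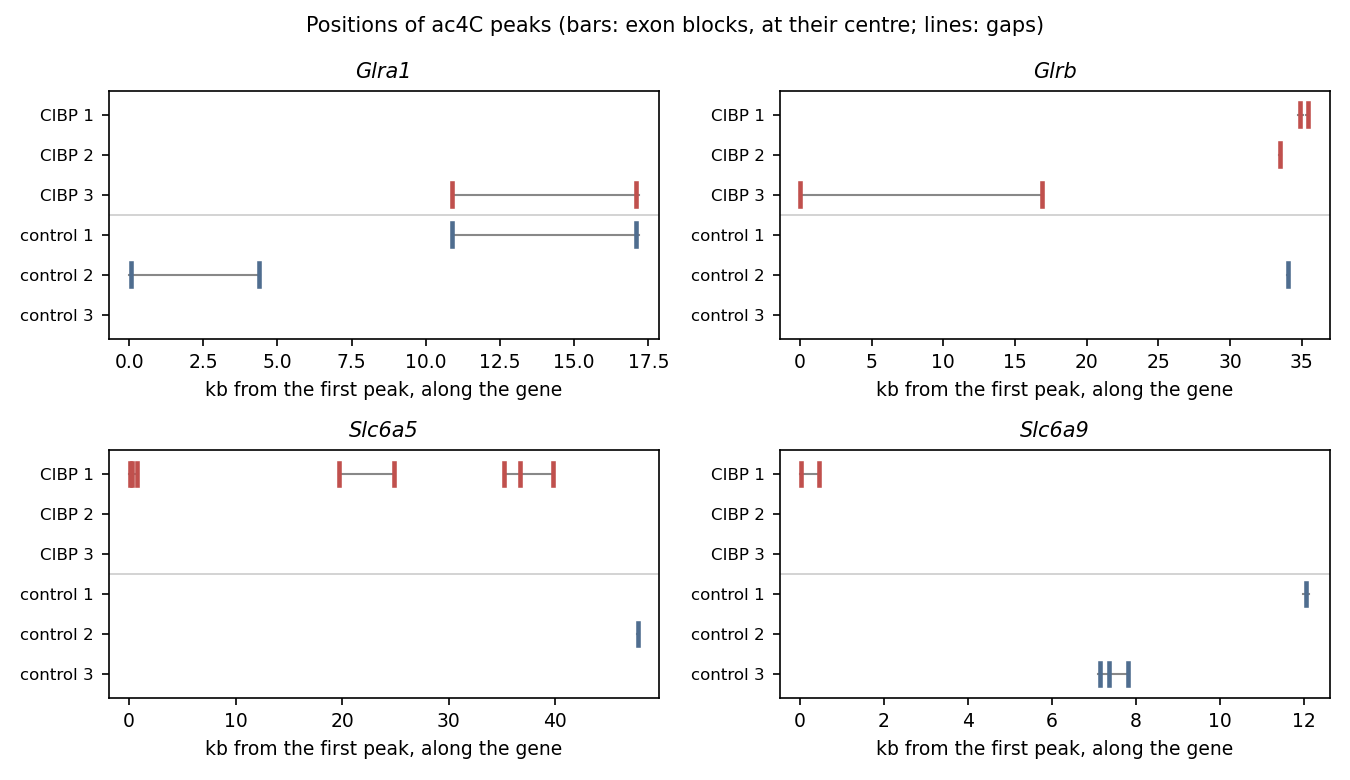
Distance of each ac4C peak in kb from the most upstream peak of its gene, along the direction of transcription, for Glra1, Glrb, Slc6a5 and Slc6a9, with CIBP lists (red) above control lists (blue). Bars mark the centres of blocks and thin lines join blocks of one peak. The CIBP 3 and control 1 peaks of Glra1 coincide, and no other peaks do.

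Other genes of inhibitory transmission were read from 6 lists with 61 genes, of which 42 had a row in the RIP table. All 42 had passed the authors' threshold by having a row. Their log2 folds had a median of 2.405, against 2.401 over all genes, with 22 above and 20 below that of all genes. Gained as deposited was 1 of 42 genes (2.38%, beside the 11.3% of all genes) and lost was 1 (2.38%, beside 0.738%). With the FDR limit 1 was gained (2.38%, beside 1.8%) and 4 were lost (9.52%, beside 1.71%). These lists were chosen with earlier results of the data known, and no test over them was run.

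Partners of gephyrin and its traffic had a median log2 fold of 2.34 (12 of 14 genes with a row). The kinesin Kif5b, at 2.97, and Gabarap, a receptor-trafficking protein, at 2.83, were highest. Dynll1 and Dynll2, dynein light chains that bind gephyrin, were lowest at 1.22 and 1.63. Dynll1 had peaks in controls 2 and 3 only and counted as lost, but its control 3 peak had an FDR of 0.0617.

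Chloride transporters and their kinases had a median of 2.41 (9 of 14 genes). Slc12a2 (NKCC1), which brings chloride into cells, and the kinase Oxsr1 were both highest at 2.88, and Wnk2, another kinase of the cascade, and Stk39, which acts beside Oxsr1, were lowest at 1.72 and 2.102. Slc12a5 at 2.00 lay below 8 of the 9. Slc12a2 had peaks in 2 CIBP and 2 control lists under either setting. Stk39 counted as lost with the FDR limit, but had CIBP peaks outside it. Its FDR was 0.0562 in CIBP 1 and 0.0759 in CIBP 3, against 4.0e-45 in control 1 and 7.9e-11 in control 2.

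Glycine metabolism and other glycine transport had the highest median, 2.60 (8 of 11 genes). Gcsh, the hydrogen carrier of the glycine cleavage system, led with 3.07, but its pairs gave 3.75 and 2.52. Slc38a2, an amino acid transporter, had 2.96, and the lowest were Amt, another protein of the cleavage system, at 1.91, and Dld, its dehydrogenase, at 2.33. Dld counted as lost with the FDR limit, with 2 peaks in CIBP 1 at the recurrent fold and peaks with folds of 5.06 and 20.5 in controls 1 and 3.

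GABA synthesis and uptake had a median of 2.40 (5 of 6 genes). Slc6a11 (GAT-3), the astrocytic GABA transporter, was highest at 2.63 and Abat, which degrades GABA, next at 2.41. Gad1 and Gad2 were lowest. Slc6a11 was the only gene of these lists that counted as gained, under both settings. Its CIBP 2 peaks on chromosome 4 had folds of 3.36 and 5.23 (FDR 1e-24 and 0.0031) and started at 146106386 and 146166735. Its CIBP 3 peaks had folds of 15.6 and 7.81 (FDR 4.0e-76 and 6.3e-56) and started at 146110026 and 146209848. The peaks of CIBP 2 and CIBP 3 shared no base, and no list of the controls held one.

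Modulators of glycine receptors and Slc12a5 had a median of 2.41 (5 of 9 genes), led by Prkacb and Prkar1a, subunits of protein kinase A, at 3.00 and 2.63. Prkar2b was lowest at 1.74, next to Prkaca at 2.24. The molybdenum cofactor pathway, in which gephyrin acts outside synapses, had 3 of 7 genes with a row, Mocs2 at 2.43, Suox at 2.26 and Aox1 at 1.97.

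**Figure D5:**
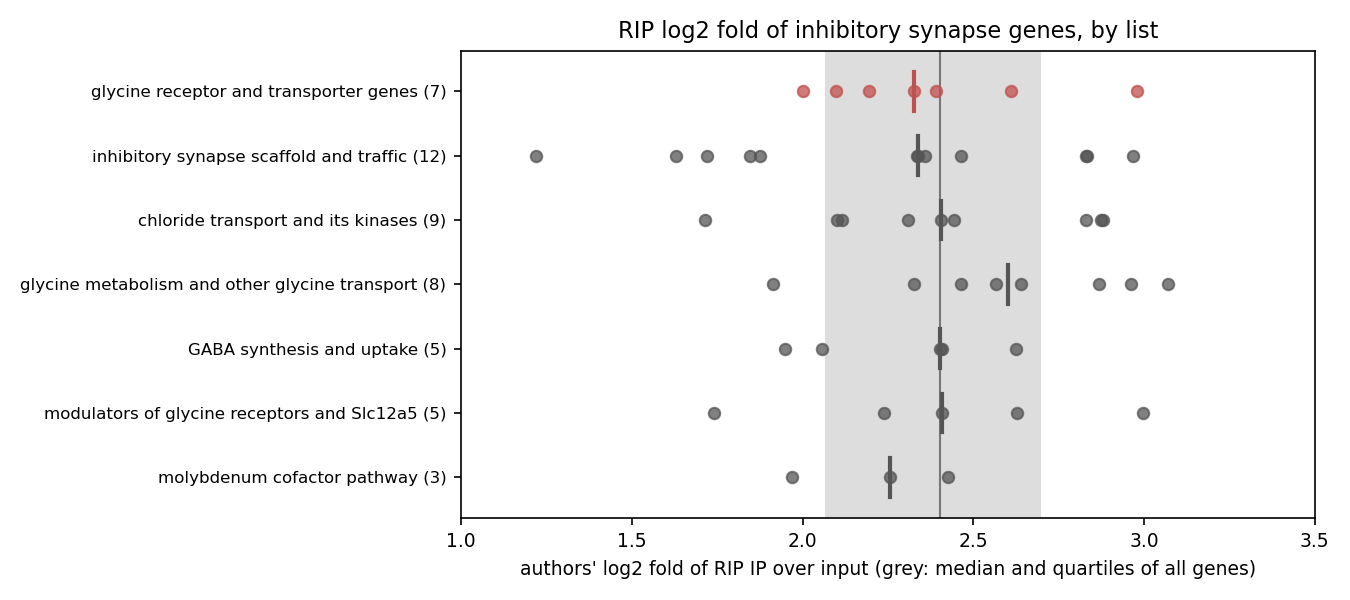
Authors' log2 fold of RIP IP over input for the 7 glycine receptor and transporter genes (red) and the 6 lists of other inhibitory synapse genes (grey), 1 dot per gene, with the number of genes in brackets and each list's median as a bar. The list medians run from 2.26 to 2.60, inside the quartiles of all genes (2.07 to 2.697, grey band).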

How the data were processed

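Dorsal horn RNA was measured in 12 ac4C libraries (3 CIBP and 3 control pairs of IP and input) and 4 RIP libraries. The submitters' processing notes list HISAT2 2.1.0, featureCounts 1.6.3, DESeq2, HOMER 4.10.4 and cutadapt 2.5, with build rn6 and no role for any tool; which program called the peaks is not stated. The authors deposited 1 peak list per IP and input pair, with a p-value, a fold (ratio of IP to input) and scores that are log10 of the p-value and of the FDR. For the RIP they deposited, per the file headers, a log2 fold, a p-value, an FDR and a normalised signal per library, for genes with a log2 fold above 1 only. Input 1 held 8370 distinct values over 8671 genes. The authors' log2 fold was within 0.0883 of log2 of mean IP over mean input signal.

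Genes were matched by symbol in the RIP table and peaks by its identifiers. Overlap meant at least 1 shared bp of exon blocks on the same strand, and coordinates are 1-based. Fisher's exact test and the Benjamini-Hochberg adjustment were run over all genes with a peak (scipy 1.17.1, pandas 2.3.3, Python 3.11.15) and tested on simulated data. The genes, lists and tests were chosen with earlier results of these data known. Named were all genes of the set with a row, the 2 genes nearest to each by signal and, per other list, the 2 highest and 2 lowest by RIP fold and each gained or lost gene, of which some are not reported here. Cell type markers were named after their values were seen. Sequences of peaks and their place in transcripts need an rn6 genome and were not analysed here. Alternatives were an FDR limit of 0.05, left-out replicates, at least 1 list in place of 2, a replicate block, a pseudocount of 1, an overlap rule and a limit on input signal.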

Additional observations from a re-analysis of the deposited data

How the results depend on the processing

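No gene of the set counted as gained or lost as deposited or with an FDR of at most 0.05. Leaving out single lists gave 0 to 1 gained gene (1 without control replicate 2, Glrb) and 0 to 1 lost gene (1 without CIBP replicate 1, Slc6a9, and 1 without CIBP replicate 3, Glra1), with the same genes under the FDR limit. Requiring 1 list in place of 2 gave 0 gained and 1 lost gene, Slc32a1, under either setting. The 5 genes with a CIBP peak became 2 to 5 (2 without CIBP replicate 1), and the 6 with a control peak 4 to 6. The median RIP log2 fold of the 7 genes, 2.33, was 2.35 to 2.44 in single pairs and 2.16 with a pseudocount of 1. Its difference from the table's median, -0.076, was -0.024 to -0.016 in single pairs and -0.087 with the replicate block. Against genes with a mean input signal above the table's median it was -0.071. It reversed to 0.085 with a pseudocount of 1, which lowers the fold of low genes most by its construction, so no direction is given to it. Paired by replicate number, the exact sign-flip test gave Glrb p = 0.5 (smallest possible 0.25), against Fisher's exact p = 0.4, and the replicate block changed no call. Whether the numbers mark shared animals or days is not given. The combinations of the FDR limit with left-out lists or 1 list, and the pseudocount and the block on the difference, were added after seeing the data. Unknown depth limits what an absent peak can show.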

Other observations

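The first CIBP 1 peak of Gphn, from 101532518 to 101603370 on chromosome 6, consisted of 4 exon blocks, the last 3 of 18, 21 and 7 bp with gaps of 4 and 2 bp between them. Gaps of that size are shorter than introns usually are; their origin was not tested.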
